A study of Mus musculus with 12 samples.

Results

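The genes described here are 6 members of the CC chemokine family, Ccl3, Ccl4, Ccl5, Ccl6, Ccl9 and Ccl25, out of 13016 genes measured in mouse early thymic progenitors. They were chosen by the RPKM of Ccl5, which had been seen to be higher in the mutant libraries, above all in dKO_Flt3ITD against control, and the other 5 were taken as its relatives. The differences of Ccl5 are therefore given as a description, with no test, and the other members are given without a test in dKO_Flt3ITD against control. All 6 were present in the table, and all 6 passed the filter on low values, so they were among the 10690 genes tested.

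These progenitors are the first cells of the T lineage in the thymus. They arrive from the bone marrow and keep some capacity to form myeloid cells. Messenger RNA was measured in 12 libraries from C57BL/6 mice, each made from 100 cells sorted straight into lysis buffer, with 4 libraries per genotype. The control cells had floxed Ezh2 and floxed Runx1 on both alleles (Ezh2 fl/fl Runx1 fl/fl) and no recombinase. The group called dKO had the same floxed alleles together with Rag1Cre+, a Cre recombinase expressed from Rag1, a gene of the lymphoid lineage, so deletion depended on that gene having been active in a cell or its ancestors. The group called dKO_Flt3ITD had the same floxed alleles and Rag1Cre+ together with Flt3 ITD/+, that is 1 allele of the cytokine receptor Flt3 that holds an internal tandem duplication, which makes the receptor active without its ligand and is found in leukaemia. All 3 groups thus shared the floxed alleles, no group had Flt3 ITD/+ without Rag1Cre+, and the labels do not say whether libraries of a group came from separate mice. P-values then measure the spread between these libraries, which may be technical in part. The labels give no age.

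Values are RPKM, reads scaled to gene length and library size. The whole reads behind the values totalled 13623436 to 33985972 per library. The sum of RPKM over all genes ran from 515638 in control 1 to 1071041 in dKO_Flt3ITD 1, and the next highest sum was 829421 in dKO 1. Ezh2 was at 32.8 to 45.7 RPKM in control, 16.9 to 29.8 in dKO and at most 24.6 in dKO_Flt3ITD, while Runx1 was at 16.3 to 25.3, 35.9 to 58.2 and 32.6 to 58.8. A level over the whole gene also counts reads outside a deleted part, so the higher Runx1 levels do not check that deletion, and the directions given here rest on the labels. Of 14 marker genes of early thymic progenitors 13 were in the table. Their summed level was 1198 to 1968 RPKM in control, 620 to 704 in dKO and 465 to 645 in dKO_Flt3ITD. Most of that difference was Dntt, with means of 946, 99.0 and 27.7 RPKM, and without it the sums were 589 to 809, 491 to 629 and 455 to 554, while Lmo2 (31.2, 43.9 and 76.7 RPKM) and Lyl1 (35.0, 44.0 and 66.4 RPKM) had the opposite order. All 13 were above 0 in every control library, and Kit, the stem cell factor receptor used to define these cells, stood at 44.7 to 69.9 RPKM in control, 38.2 to 68.3 in dKO and 39.5 to 78.8 in dKO_Flt3ITD.

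Chemokines are small secreted proteins that guide migrating cells along a gradient by binding receptors of the G protein-coupled class. The CC family is named for the pair of adjacent cysteines near the start of the mature protein. Ccl5 (RANTES) draws T cells, monocytes, eosinophils and natural killer cells, Ccr1 and Ccr3 being among its receptors, and is made by activated T cells, natural killer cells, macrophages and platelets. Ccl3 and Ccl4 (macrophage inflammatory proteins) draw monocytes and T cells, and Ccl3 acts on Ccr1. Ccl6 and Ccl9 are rodent myeloid chemokines that act on Ccr1. Ccl25 differs from the rest: it is made mainly by thymic epithelium and small intestine and, through Ccr9, guides progenitors into the thymus, so it is a homeostatic rather than an inflammatory chemokine.

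The shared family feature is visible in the coding sequence, where each member has the codons of the paired cysteines inside a stretch that otherwise differs between members. The stretches were read 5′ to 3′ along the coding strand from the GENCODE transcripts of GRCm38, with 30 bases on each side, and the capitals mark the codons of the paired cysteines.
Ccl5: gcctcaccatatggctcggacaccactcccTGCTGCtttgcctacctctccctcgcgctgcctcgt
Ccl3: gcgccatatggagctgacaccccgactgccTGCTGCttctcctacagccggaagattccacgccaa
Ccl4: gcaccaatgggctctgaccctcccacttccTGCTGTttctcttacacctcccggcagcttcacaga
Ccl6: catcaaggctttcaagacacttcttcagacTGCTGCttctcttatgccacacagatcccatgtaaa
Ccl9: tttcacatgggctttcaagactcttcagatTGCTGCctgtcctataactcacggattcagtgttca
Ccl25: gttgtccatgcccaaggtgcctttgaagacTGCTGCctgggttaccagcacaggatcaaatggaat
Over these 66 bases Ccl3 and Ccl4 were the most alike of the 15 pairs, with 60.6% of positions identical, and Ccl5 and Ccl25 the least alike, with 28.8%. The pair of cysteines falls on codons 33 and 34 of Ccl5 and on codons 34 and 35 of both Ccl3 and Ccl4. The coding sequence of Ccl5 has 276 bases, that of Ccl3 and of Ccl4 279, that of Ccl6 351, that of Ccl9 369 and that of Ccl25 435.

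Ccl5 is the gene on which the results turn, so its whole coding sequence is shown, with the same codons in capitals.
Ccl5 coding sequence: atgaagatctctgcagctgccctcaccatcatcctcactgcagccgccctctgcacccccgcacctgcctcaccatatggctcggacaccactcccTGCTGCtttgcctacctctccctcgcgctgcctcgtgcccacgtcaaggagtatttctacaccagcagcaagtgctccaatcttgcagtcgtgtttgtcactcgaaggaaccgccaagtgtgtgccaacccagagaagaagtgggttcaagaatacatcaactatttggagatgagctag
Because these genes are relatives, the transcripts were compared for runs of letters that a read could not assign. The longest run shared by Ccl5 and any other member was 13 bases, with Ccl3, and the longest among all pairs was 25 bases, between Ccl6 and Ccl9. Reads longer than these runs hold letters that tell the members apart, but read length is not given in the sources used here.

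On GRCm38 the genes Ccl5 (chromosome 11, 83525778 to 83530518, minus strand), Ccl9 (83572919 to 83578636, minus strand), Ccl6 (83587882 to 83593087, minus strand), Ccl3 (83647844 to 83649355, minus strand) and Ccl4 (83662584 to 83664683, plus strand) lie in that order within 139 kb of chromosome 11. Ccl25 lies on chromosome 8 (4325210 to 4360020, plus strand) and overlaps Elavl1. Ccl6 overlaps the noncoding gene E230016K23Rik on the other strand. Whether the counting used strand is not given in the sources used here, so for Ccl6 and Ccl25 reads from the overlapping partner cannot be told apart where the genes overlap.

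Ccl5 was low in control, higher in dKO and highest in dKO_Flt3ITD, and the dKO_Flt3ITD libraries were very unequal. The 4 control libraries had 0, 7.09, 14.6 and 8.67 RPKM. The 4 dKO libraries had 76.8, 30.9, 41.2 and 28.6 RPKM. The 4 dKO_Flt3ITD libraries had 1533, 251, 170 and 50.7 RPKM. Every dKO and every dKO_Flt3ITD library was above every control library, whereas dKO and dKO_Flt3ITD overlapped, since dKO_Flt3ITD 4 (50.7 RPKM) lay below dKO 1 (76.8 RPKM). The same order is seen in the plot of the 6 genes by library.

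**Figure D1:**
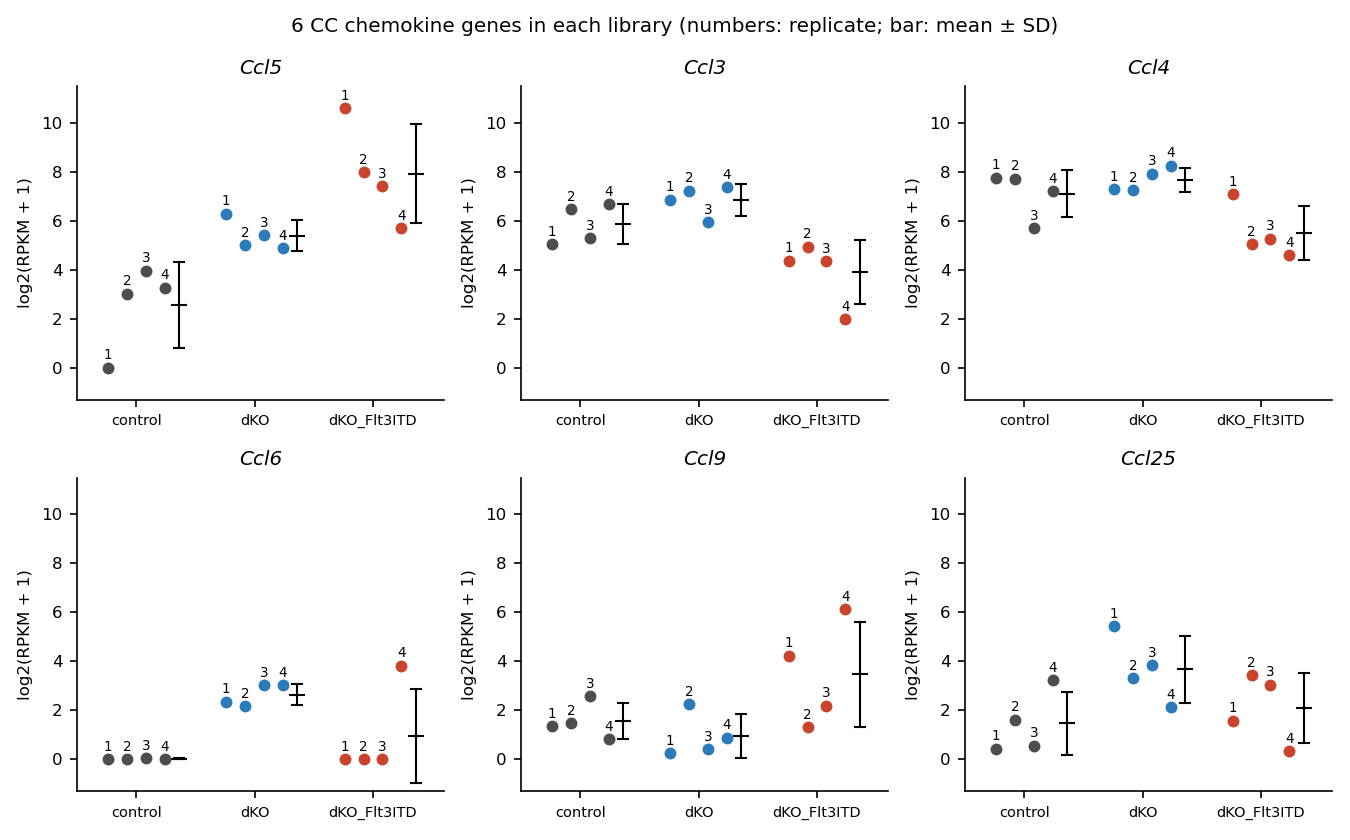
Level of each of the 6 chemokine genes, as log2(RPKM + 1), in the 4 control, 4 dKO and 4 dKO_Flt3ITD libraries. Each point is a library with its replicate number, and the bar is the group mean with its SD on the log2 scale. For Ccl5 all mutant libraries lie above all controls and dKO_Flt3ITD 1 (1533 RPKM) stands alone at the top, for Ccl3 all dKO_Flt3ITD libraries lie lowest, and Ccl6 is near 0 in every control.

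These Ccl5 values rest on 22167 reads in dKO_Flt3ITD 1, 2485 in dKO_Flt3ITD 2, 2229 in dKO_Flt3ITD 3 and 654 in dKO_Flt3ITD 4, against 250 to 681 reads in dKO. In control they rest on 75, 193 and 133 reads, and on 0 reads in control 1, which allows a level of up to 0.208 RPKM (3 reads of that library). Counting error was small beside the spread between libraries. For dKO_Flt3ITD 1 the exact Poisson 95% interval was 1513 to 1553 RPKM, and for dKO_Flt3ITD 4 it was 46.9 to 54.8 RPKM. Such limits cover counting error only, because amplification from 100 cells copies the same molecules many times.

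The high group mean was carried mainly by dKO_Flt3ITD 1, which held 76.5% of the summed Ccl5 level of its group. The group mean was 501 ± 693 RPKM (SD, n = 4) and the median 211 RPKM, against 44.4 ± 22.3 and 36.1 in dKO and 7.58 ± 5.99 and 7.88 in control. Without dKO_Flt3ITD 1 the mean of that group was 157 ± 101 RPKM (n = 3). The ratio of means between dKO_Flt3ITD and control then went from 66.1 to 20.7, and that between dKO_Flt3ITD and dKO from 11.3 to 3.54. The library at the other end was dKO_Flt3ITD 4, and without it the ratio to control was 85.9. The 3 libraries other than dKO_Flt3ITD 1 were still all above every control.

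On the log2(RPKM + 1) scale, which gives each library the same weight, the difference in Ccl5 was 2.83 (SE 0.87) for dKO against control, 5.36 (SE 0.87) for dKO_Flt3ITD against control and 2.53 (SE 0.87) for dKO_Flt3ITD against dKO. Leaving out dKO_Flt3ITD 1 took the last pair to 4.47 and 1.64. Leaving out control 1, where no Ccl5 read was found, took the first pair to 1.97 and 4.50. With every library rescaled to the same RPKM sum, dKO_Flt3ITD 1 went from 1533 to 956 RPKM, and the 3 differences were 2.79, 5.20 and 2.41. That rescaling moved the median of all tested genes in dKO_Flt3ITD against control from 0.00 to -0.205, and no member changed its direction under it.

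Within each library the rank of Ccl5 among the 13016 genes tells the same order without any scaling. It ranked 4315 to 11944 in control, 1316 to 2841 in dKO, and 122, 382, 529 and 1687 in dKO_Flt3ITD 1 to 4. In dKO_Flt3ITD 1 Ccl5 was thus among the most abundant messages by RPKM, and in dKO_Flt3ITD 4 its rank lay inside the range of dKO. These libraries hold sorted cells in bulk, so a few cells with much Ccl5 and many cells with a little cannot be told apart, and neither can fewer cells of a type and less RNA per cell.

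Ccl3 and Ccl4, the macrophage inflammatory proteins, were lower in dKO_Flt3ITD. Ccl3 had 32.0, 88.0, 37.9 and 102 RPKM in control, 115, 149, 60.8 and 166 in dKO, and 19.7, 29.6, 19.3 and 2.92 in dKO_Flt3ITD. Every dKO_Flt3ITD library lay below every control and every dKO library, and control and dKO overlapped. The group means were 64.9 ± 35.1, 123 ± 46.3 and 17.9 ± 11.1 RPKM (SD, n = 4).

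Ccl3 differed by -1.97 (SE 0.57) on the log2 scale in dKO_Flt3ITD against control, given as a description. Against dKO the difference was -2.95 (95% interval -4.15 to -1.75), with an adjusted p of 0.138 in limma over all tested genes, so it did not pass at 0.05. Over the alternatives that adjusted p ran from 0.0512, with libraries rescaled to a fixed sum, to 0.482. In dKO against control the difference of Ccl3 was 0.98 (95% interval -0.22 to 2.19, adjusted p 0.693).

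Ccl4 was the most abundant member in control and dKO. It had 216, 209, 51.3 and 147 RPKM in control, 155, 152, 242 and 303 in dKO, and 135, 31.9, 37.4 and 23.2 in dKO_Flt3ITD. All dKO_Flt3ITD libraries lay below all dKO libraries, while dKO_Flt3ITD 1 (135 RPKM) lay above control 3 (51.3 RPKM), so dKO_Flt3ITD and control overlapped. The library with the highest Ccl5 was thus also the dKO_Flt3ITD library with the highest Ccl4, though not with the highest Ccl3, which was dKO_Flt3ITD 2 (29.6 RPKM).

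The means of Ccl4 were 156 ± 76.4, 213 ± 73.0 and 57.0 ± 52.5 RPKM (SD, n = 4). The difference was -1.60 (SE 0.52) in dKO_Flt3ITD against control, a description. It was -2.18 (95% interval -3.27 to -1.08) against dKO, with a limma adjusted p of 0.261 over all tested genes, and 0.58 (95% interval -0.52 to 1.67) in dKO against control, with an adjusted p of 0.858. Neither passed, and over the alternatives the first adjusted p ran from 0.0737, without dKO_Flt3ITD 1, to 0.533.

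The make-up of the chemokine message followed from these opposite levels. Ccl3 and Ccl4 together held 81.6% to 99.2% of the summed RPKM of the 6 genes in control and 68.7% to 92.2% in dKO, but 9.07% to 23.9% in dKO_Flt3ITD. Ccl5 held 0% to 13.3% in control, 5.63% to 19.6% in dKO and 31.9% to 89.8% in dKO_Flt3ITD. The level of Ccl5 was 0 to 0.284 times that of Ccl4 in control, 0.0946 to 0.496 times in dKO and 2.19 to 11.3 times in dKO_Flt3ITD. This ratio within a library does not depend on its scaling, and it was above 1 in all 4 dKO_Flt3ITD libraries and in none of the other 8. These shares use the values by which the genes were chosen and are a description.

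**Figure D2:**
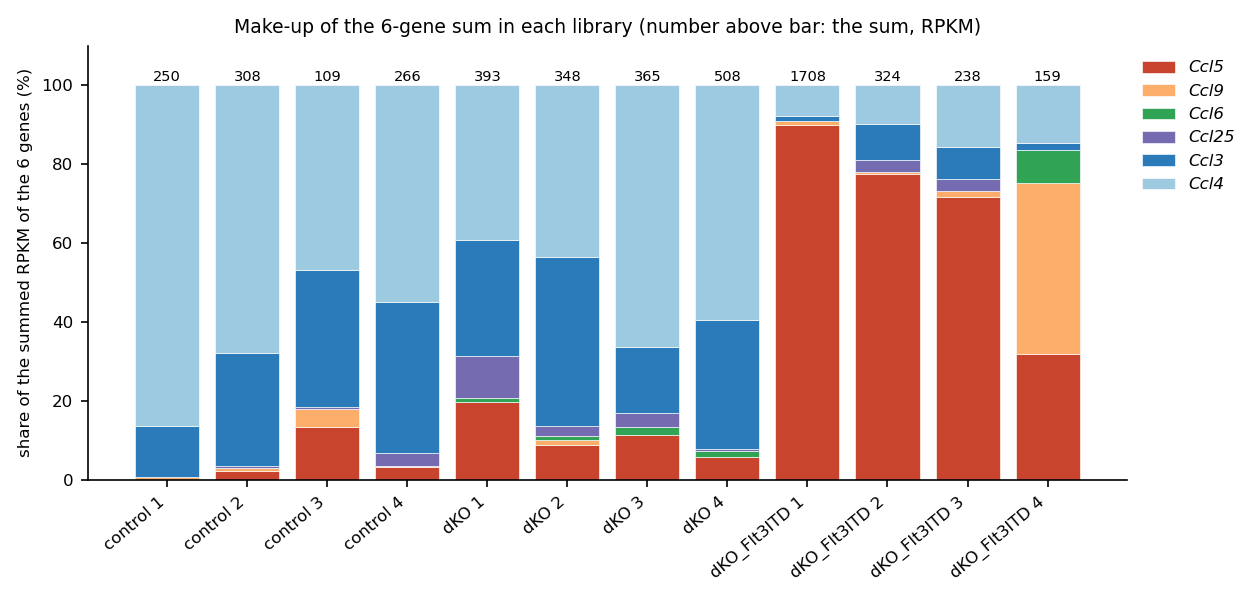
Share of the summed RPKM of the 6 genes taken by each gene, in percent, for each of the 12 libraries, with the sum in RPKM above each bar. Ccl3 and Ccl4 fill most of every control and dKO bar, Ccl5 fills 71.6% to 89.8% of dKO_Flt3ITD 1, 2 and 3, and in dKO_Flt3ITD 4 Ccl9 holds 43.3% and Ccl5 31.9%.

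The myeloid chemokine Ccl6 had a different pattern, being present in every dKO library and nearly absent from control. Control 1, 2 and 4 had 0 reads, and control 3 had 1 read, or 0.0279 RPKM. The dKO libraries had 4.09, 3.52, 7.13 and 7.07 RPKM, from 98, 77, 289 and 189 reads. In dKO_Flt3ITD, 3 libraries had 0 reads, which allows up to 0.0767, 0.112 and 0.0846 RPKM, and dKO_Flt3ITD 4 had 13.1 RPKM from 455 reads.

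Every dKO library was thus above every control library for Ccl6, and above 3 of the 4 dKO_Flt3ITD libraries. The fitted difference in dKO against control was 2.63 on the log2(RPKM + 1) scale (95% interval 1.15 to 4.11), with an adjusted p of 0.0982 in limma, so it did not pass. Ccl6 reached 1 RPKM only in the 4 dKO libraries and in dKO_Flt3ITD 4, so it passed the filter on low values through the group where it was high, and a test against control draws on that selection. That call depended on dKO_Flt3ITD 4, whose value adds to the spread shared by all groups: without this library the adjusted p was 0.00339, and with only the 8 libraries compared it was 0.00967. The size of the fitted difference depends on the pseudocount, since control is at or near 0. In dKO_Flt3ITD against dKO the difference was -1.69 (95% interval -3.17 to -0.20, adjusted p 0.591).

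Ccl9, the other myeloid member, was highest in the same library as Ccl6. It had 1.56, 1.78, 4.997 and 0.771 RPKM in control, 0.179, 3.78, 0.330 and 0.839 in dKO, and 17.8, 1.48, 3.55 and 68.7 in dKO_Flt3ITD. Only dKO_Flt3ITD 1 and dKO_Flt3ITD 4 lay above all 8 other-genotype libraries, and dKO_Flt3ITD 2 and 3 lay within their range. The means were 2.28 ± 1.86, 1.28 ± 1.69 and 22.9 ± 31.4 RPKM (SD, n = 4).

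The difference of Ccl9 was 1.90 (SE 0.84) in dKO_Flt3ITD against control, a description, and 0.19 without dKO_Flt3ITD 1 and dKO_Flt3ITD 4, an alternative chosen after seeing the data. It was 2.52 (95% interval 0.75 to 4.29) against dKO, with a limma adjusted p of 0.436 over all tested genes, and -0.61 (95% interval -2.38 to 1.16) in dKO against control, with an adjusted p of 0.931. Neither passed.

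Ccl25, the thymic homing ligand, was uneven within every group. It had 0.347, 2.05, 0.472 and 8.42 RPKM in control, 42.0, 8.86, 13.3 and 3.33 in dKO, and 1.99, 9.77, 7.22 and 0.259 in dKO_Flt3ITD. All 3 groups overlapped. The difference was 2.21 (95% interval 0.50 to 3.93) in dKO against control with a limma adjusted p of 0.330 over all tested genes, and -1.58 (95% interval -3.30 to 0.14) in dKO_Flt3ITD against dKO with an adjusted p of 0.686, so neither passed. It was 0.64 (SE 0.81) in dKO_Flt3ITD against control, a description. The levels of thymic epithelial and stromal markers overlapped between all groups: 8 of 15 were in the table, with a summed level of 27.2 to 60.8 RPKM in control, 33.1 to 56.1 in dKO and 27.2 to 43.8 in dKO_Flt3ITD, and the epithelial genes Foxn1 and Epcam were not analysed here.

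Against the background of all tested genes, 2 of 6 members had groups that did not overlap in each comparison. In dKO against control these were Ccl5 and Ccl6, both higher, where 6.30% of all tested genes did not overlap. In dKO_Flt3ITD against control they were Ccl5, higher, and Ccl3, lower, where the share of all tested genes was 7.67%. In dKO_Flt3ITD against dKO they were Ccl3 and Ccl4, both lower, where the share was 4.28%. The members were chosen with such values known, so nothing is read from these counts.

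Limma called 1.02% of all tested genes (109) in dKO against control and 1.50% (160) in dKO_Flt3ITD against control, with 981 and 1435 genes at an unadjusted p under 0.05. In dKO_Flt3ITD against dKO it called 0% (0 genes), with 824 genes at an unadjusted p under 0.05 and 0 called by voom on the recovered reads. None of Ccl3, Ccl4, Ccl6, Ccl9 and Ccl25 was called in dKO against control or in dKO_Flt3ITD against dKO, where at an unadjusted p under 0.05 there were 2 of them (Ccl6 and Ccl25) and 4 (all but Ccl25), and voom called 0. The median difference of the 6 members was 1.60, 0.79 and -1.63 in the 3 comparisons, beside 0.01, 0.00 and 0.00 over all tested genes. dKO_Flt3ITD against control and dKO against control share the control libraries, and dKO is shared by its own pair of comparisons, so the values of a member in different comparisons are not independent.

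Of the receptors through which the members act, Ccr9, the receptor of Ccl25, was lower in dKO_Flt3ITD than in control. It had 11.4, 7.69, 11.6 and 5.72 RPKM in control, 0, 1.69, 6.44 and 0.526 in dKO, and 0, 0.0855, 0 and 0 in dKO_Flt3ITD. All dKO_Flt3ITD libraries lay below all controls, while in dKO the library dKO 3 (6.44 RPKM) reached the control range. The means were 9.09 ± 2.87, 2.16 ± 2.94 and 0.0214 ± 0.0428 RPKM (SD, n = 4).

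In limma Ccr9 had a difference of -3.26 (SE 0.57) in dKO_Flt3ITD against control with an adjusted p of 0.00543, and it kept its call without each of the 12 libraries in turn, with a highest adjusted p of 0.0223. It lost it with voom (adjusted p 0.0975) and without dKO_Flt3ITD 1 and dKO_Flt3ITD 4 together (adjusted p 0.0512). Ccr9 reached 1 RPKM in 4 control libraries, 2 dKO libraries and no dKO_Flt3ITD library. It thus passed the filter on low values only through the groups where it was high, and a test against control draws on that selection. In dKO against control the difference was -2.05 (SE 0.57) with an adjusted p of 0.111, and without dKO 3 the adjusted p was 0.0276. In dKO_Flt3ITD against dKO it was -1.20 (SE 0.57) with a limma adjusted p of 0.643, and those groups overlapped. In the dKO_Flt3ITD libraries Ccl25 stood at 0.259 to 9.77 RPKM and Ccr9 at 0 to 0.0855 RPKM.

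Ccr3, a receptor of Ccl5, was uneven within the mutant groups. It had 0, 0, 0.0367 and 0.0106 RPKM in control, 15.7, 0.10, 6.51 and 1.12 in dKO, and 0.639, 0.492, 20.8 and 0.0126 in dKO_Flt3ITD. Every dKO library was above every control, though dKO 2 (0.10 RPKM) and control 3 (0.0367 RPKM) were both near 0. The difference was 2.03 (SE 0.89), with a limma adjusted p of 0.479. Ccr3 reached 1 RPKM in 3 dKO libraries, 1 dKO_Flt3ITD library and no control. It thus passed the filter on low values only through the groups where it was high, and a test against control draws on that selection. In dKO_Flt3ITD 1, the library with the most Ccl5, Ccr3 stood at 0.639 RPKM. Ccr1 was not analysed here.

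Over the rest of the chemokine system, 26 of 58 listed ligands and receptors were in the table and 11 were tested. Limma called 0 of these 11 in dKO against control, 1 in dKO_Flt3ITD against control (Ccr9) and 0 in dKO_Flt3ITD against dKO, with 4, 4 and 1 at an unadjusted p under 0.05 and 0 called by voom in each. Of all 10690 tested genes it called 1.02%, 1.50% and 0%, with 981, 1435 and 824 at an unadjusted p under 0.05. The median difference of the 11 was -0.06, -0.49 and -0.49. In dKO_Flt3ITD against dKO 10 of the 11 had a negative difference, where the median over all tested genes was 0.00.

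Cxcl10, an interferon-induced ligand of Cxcr3, was the only tested ligand of another chemokine class. It had 0, 3.74, 0.328 and 0.0630 RPKM in control, 0, 5.79, 171 and 50.1 in dKO, and 108, 43.9, 92.5 and 4.61 in dKO_Flt3ITD. Every dKO_Flt3ITD library was above every control, as for Ccl5, and the lowest of them was again dKO_Flt3ITD 4. The difference was 4.64 (SE 1.24) with a limma adjusted p of 0.0769, so it did not pass, and it passed without dKO 1, dKO 3 or dKO_Flt3ITD 4 (adjusted p 0.0224, 0.0455 and 0.0296) and with only the 8 libraries compared (adjusted p 0.0150). In dKO against control the adjusted p was 0.353.

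Ccr7, a receptor that guides cells within the thymus and to lymph nodes, had 3.63 to 7.52 RPKM in control and 0 to 2.88 in dKO_Flt3ITD, without overlap, with a difference of -1.97 (SE 0.67) and a limma adjusted p of 0.187. Ccl27a, the only tested CC ligand that is not a member, had differences of -0.06, -0.29 and -0.24 (SE 0.62). The other 5 CC ligands in the table (Ccl2, Ccl12, Ccl19, Ccl24 and Ccl28) did not reach 1 RPKM in 4 or more libraries, so they were not tested. Ccl12 stood at 10.5 RPKM in dKO_Flt3ITD 1 and 0 in the other dKO_Flt3ITD libraries. In dKO it was at 9.27, 4.90, 0 and 0 RPKM, and in control at 0 to 0.0688.

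**Figure D3:**
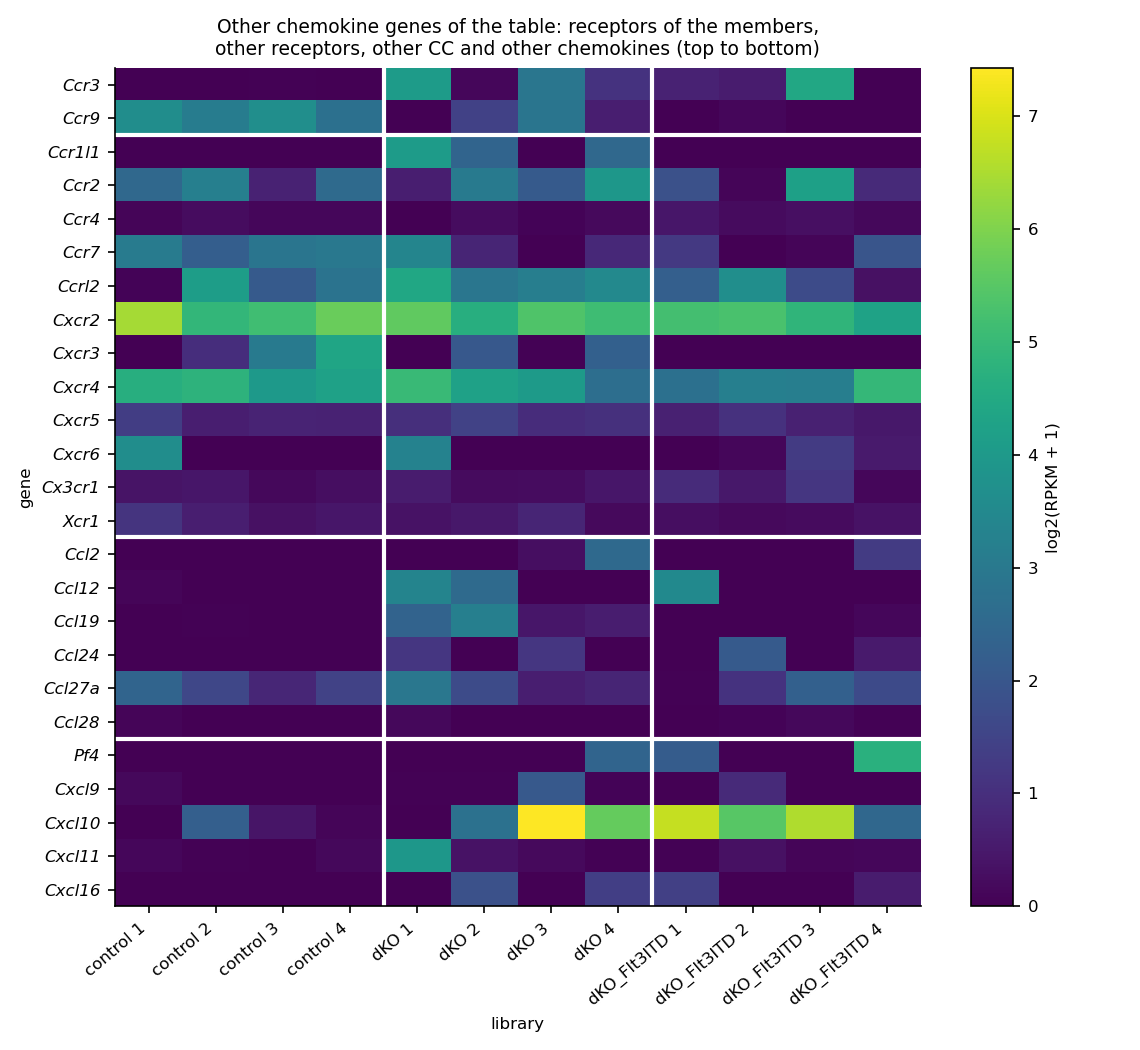
Level of other chemokine receptor and ligand genes of the table, as log2(RPKM + 1), with genes in rows and the 12 libraries in columns. Ccr9 is dark in all 4 dKO_Flt3ITD columns (0 to 0.0855 RPKM) and bright in control (5.72 to 11.6 RPKM), and Cxcl10 is bright in dKO_Flt3ITD 1 to 3 and in dKO 3 and dKO 4.

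Among 27 tested genes that carry or dampen chemokine receptor signals, Rgs14, a regulator that speeds the shut-off of G proteins, was called higher in dKO_Flt3ITD against control, and none was called lower. It had 0.0313, 0, 0 and 0 RPKM in control, 0, 0.195, 0.406 and 0 in dKO, and 2.48, 3.89, 1.74 and 6.80 in dKO_Flt3ITD. All dKO_Flt3ITD libraries lay above all others, and it reached 1 RPKM in these 4 alone, so it passed the filter on low values only through the group where it was high. The difference was 2.12 (SE 0.43) with a limma adjusted p of 0.0188, which was lost without control 2, control 3 or control 4 (0.0524, 0.0549 and 0.0529), with only the 8 libraries compared (0.0568), without dKO_Flt3ITD 1 and 4 together (0.0870) and with voom (0.0893). Rgs2, another regulator of this family, was at 84.2 to 133 RPKM in control and 24.8 to 69.4 in dKO_Flt3ITD, without overlap (limma adjusted p 0.202), and Rgs1 had a mean of 463 ± 171 RPKM in control and 137 ± 150 in dKO_Flt3ITD (SD, n = 4; difference -2.47, limma adjusted p 0.0656). The list as a whole had a median difference of 0.00, the same as all tested genes, with 14 positive and 13 negative. In this comparison limma called 1.50% of all 10690 tested genes. At an unadjusted p under 0.05 there were 1435 of all tested genes and 8 of the list.

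Ccl5 is a known target of NF-kB and of interferon regulatory factors, so both groups of factors are given beside it. Of 18 NF-kB genes limma called 0 in each comparison, with 0, 3 and 5 at an unadjusted p under 0.05 and 0 called by voom. Of all 10690 tested genes limma called 1.02%, 1.50% and 0%, with 981, 1435 and 824 at an unadjusted p under 0.05. Nfkbia, the inhibitor that NF-kB itself induces, had 121, 47.8, 150 and 142 RPKM in dKO_Flt3ITD, 43.4 to 64.7 in control and 25.7 to 53.0 in dKO, with a difference of 0.94 (SE 0.38, limma adjusted p 0.278) against control. Birc3, another induced gene, was lower in every dKO_Flt3ITD library (4.05 to 15.2 RPKM) than in every control (15.6 to 30.8 RPKM), with a difference of -1.46 (SE 0.44) and a limma adjusted p of 0.120, or 0.0468 without dKO_Flt3ITD 4. Members of this list thus lay in both directions, with a median difference of -0.14, 0.32 and 0.10 in the 3 comparisons.

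Of 11 tested interferon regulatory and STAT genes limma also called 0 in each comparison, with 2, 1 and 1 at an unadjusted p under 0.05 and 0 called by voom. Over all 10690 tested genes it called 1.02%, 1.50% and 0%, with 981, 1435 and 824 at an unadjusted p under 0.05. Of the 11 genes, the one with the smallest p was Irf7, the factor that amplifies type I interferon. It had 23.9 to 72.2 RPKM in control, 59.0 to 196 in dKO, and 143, 170, 198 and 60.5 in dKO_Flt3ITD. Its difference was 1.36 (SE 0.46, limma adjusted p 0.246) in dKO and 1.47 (SE 0.46, limma adjusted p 0.142) in dKO_Flt3ITD against control, and the adjusted p of the latter was 0.0457 without dKO_Flt3ITD 4. For Ccl5, Cxcl10 and Irf7 alike, dKO_Flt3ITD 4 was the lowest library of its group.

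None of the tested genes around Ccl5 passed the test. Within 250 kb on either side 10 genes other than members were in the table and 8 were tested. Limma called 0 of these 8 in each comparison, beside 1.02%, 1.50% and 0% of all tested genes, so nothing is read from this count. The median difference of the 8 was 0.00 in dKO against control, -0.03 in dKO_Flt3ITD against control and 0.07 in dKO_Flt3ITD against dKO. Taf15, the nearest tested gene on the side away from the cluster, had a mean of 4.21 ± 2.85 RPKM in the control libraries, 3.93 ± 2.32 in those of dKO and 5.40 ± 2.83 in those of dKO_Flt3ITD (SD, n = 4). E230016K23Rik, which overlaps Ccl6, had 2.16 ± 1.24, 2.24 ± 0.850 and 2.01 ± 0.937 RPKM, whereas Ccl6 was at 0 to 0.0279 RPKM in control and 3.52 to 7.13 in dKO.

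Beyond Ccl4 lie Wfdc17 and Wfdc18, genes of small secreted proteins with a whey acidic protein domain. Wfdc17 had 362, 0.458, 5.70 and 113 RPKM in dKO_Flt3ITD, so that dKO_Flt3ITD 1 and dKO_Flt3ITD 4 were high, as for Ccl9, and its difference from control was 1.77 (SE 1.38, limma adjusted p 0.628). Wfdc18 had 0 RPKM in all 4 dKO_Flt3ITD libraries, 8.09 to 14.4 RPKM in dKO and 0 to 6.85 RPKM in control. The dKO_Flt3ITD and control libraries thus overlapped at 0. Its difference in dKO_Flt3ITD against dKO was -3.55 (SE 0.59, limma adjusted p 0.0664), the direction of Ccl3 and Ccl4. Against control the difference of Wfdc18 was -1.98 (SE 0.59, limma adjusted p 0.120), and neither passed.

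**Figure D4:**
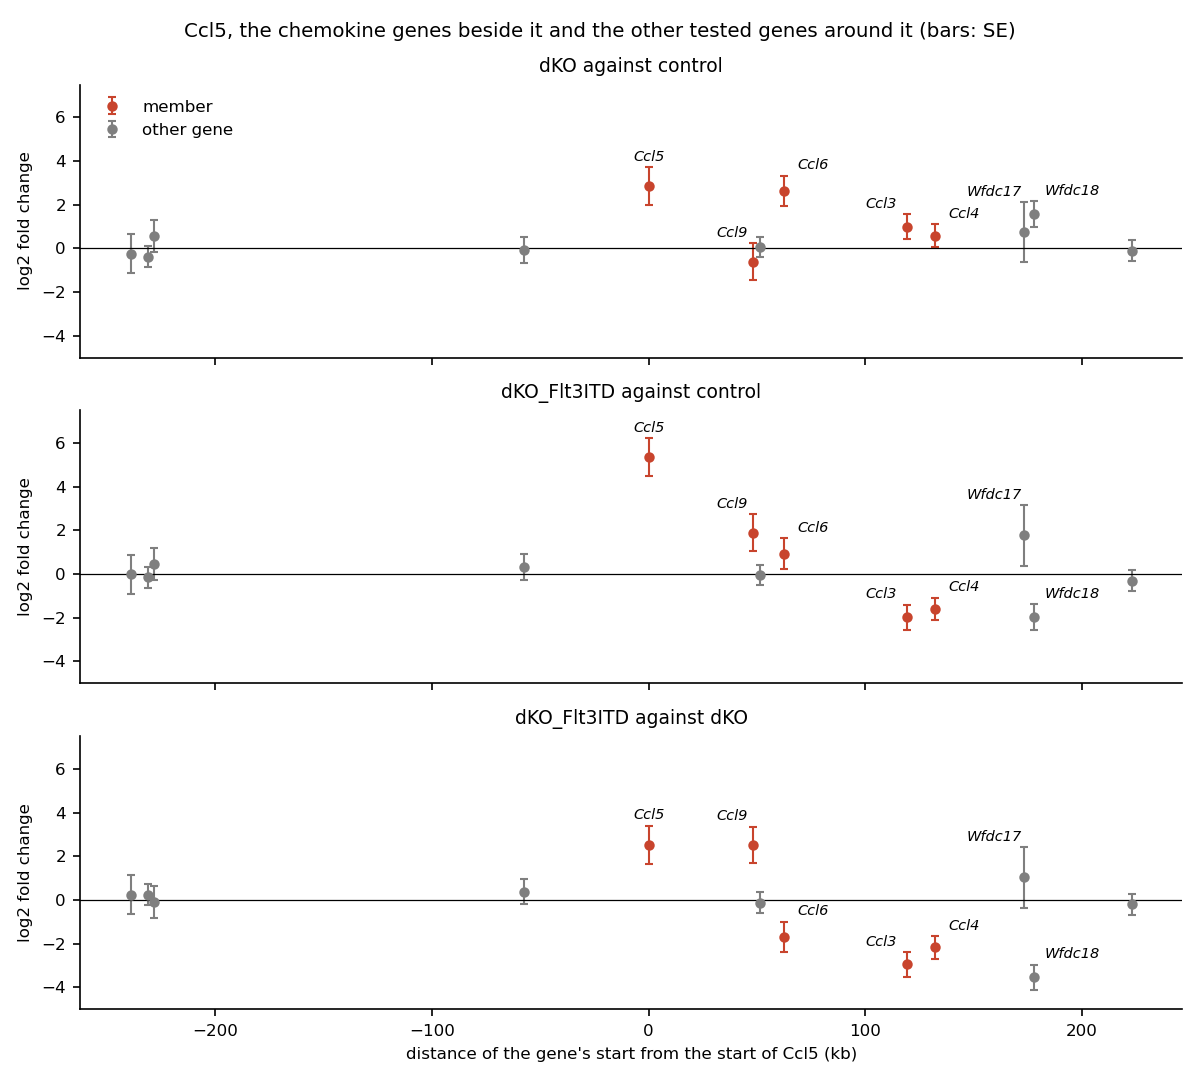
Difference on the log2(RPKM + 1) scale, with its SE, for the 5 members on chromosome 11 and the 8 other tested genes within 250 kb, against the distance of each gene's start from that of Ccl5 in kb, in the 3 comparisons. In dKO_Flt3ITD against control Ccl5 stands at 5.36, the values of the members run down to -1.97 for Ccl3, and the genes on the far side of Ccl5 lie near 0.

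The transcription factor gene Runx1 is floxed in these mice, so the stretches upstream of the members were searched for the core letters bound by RUNX factors, TGTGGT, on both strands. RefSeq entries on GRCm38.p6 were matched for 4 of the 6 members (Ccl3, Ccl6, Ccl9 and Ccl25). Ccl3 is shown because it alone of these held the letters. Its dKO_Flt3ITD libraries, but not its dKO libraries, all lay below control, and whether the letters bear on these levels was not tested. The 250 bases before the start of Ccl3, chr11:83649379-83649628 on the minus strand, are shown 5′ to 3′ in the direction of the gene, with the match in capitals.
Ccl3 upstream: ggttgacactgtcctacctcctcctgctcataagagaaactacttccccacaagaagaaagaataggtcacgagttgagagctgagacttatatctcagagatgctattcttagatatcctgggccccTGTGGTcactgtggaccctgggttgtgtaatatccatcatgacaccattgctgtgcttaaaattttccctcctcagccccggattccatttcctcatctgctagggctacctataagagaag
The match is on the strand of the gene and begins 122 bases before the start. These letters were not in the 250 bases before the starts of Ccl6, Ccl9 and Ccl25, and 14% of 32851 promoter entries of the same length hold them. A match in letters is a description of the sequence and not a measured site of binding.

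The genes whose level followed that of Ccl5 most closely over the 12 libraries were Myl6, a myosin light chain gene, with Pearson r = 0.947 on log2(RPKM + 1), Ndufv3 (0.941), Etfb (0.939), Ndufab1 (0.938), Cyba (0.935) and Ndufa13 (0.927). Ndufv3, Ndufab1 and Ndufa13 encode parts of respiratory complex I, Etfb a subunit of the electron transfer flavoprotein, and Cyba a subunit of the phagocyte NADPH oxidase. The points share libraries, depth and the high RPKM sum of dKO_Flt3ITD 1, and the genes were picked as the highest of all tested genes, so these values have no test. With each library rescaled to the same sum, an alternative chosen after seeing the data, r was 0.936 for Myl6, 0.875 for Cyba and Etfb, and 0.817 to 0.863 for the 3 complex I genes, and their places among the genes most like Ccl5 ran from 2 for Myl6 to 29 for Ndufab1.

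For the other members the genes most alike were Actr6 and Serpinb6b for Ccl3 (r = 0.888 each), Asb7 (0.902) and Ccdc66 (0.815) for Ccl4, Cd55 (0.910) and Ugt1a7c (0.889) for Ccl6, S100a6 (0.910) and Pim2 (0.879) for Ccl9, and Tceal1 (0.915) and Il2rg (0.876) for Ccl25. These are descriptions over the same 12 libraries. No member was among the genes named as most like another member.

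Markers of other cells differed between libraries and groups, and these values are given beside the members. In dKO_Flt3ITD 1, which had the highest Ccl5, the 13 macrophage and monocyte markers of the table summed to 887 RPKM, against 99.3 to 247 in control, 148 to 438 in dKO and 102 to 289 in the other dKO_Flt3ITD libraries. Ly86 stood at 390 RPKM, Lyz2 at 337 and Emr1, the gene of the F4/80 antigen, at 31.8 (43.4 in dKO_Flt3ITD 4), while C1qc and Vcam1 were at 0. Only 4 of the 13 markers were highest in this library, so the high sum rests mainly on Ly86 and Lyz2. The 10 dendritic cell markers summed to 561 RPKM in that library, of which Bst2 made 518, and to 140 to 331 in the others. Itgax, Ccr9 and Cox6a2 of that list were at 0 in dKO_Flt3ITD 1, as in dKO_Flt3ITD 3 and 4, so the high sum rests on Bst2. Among the dKO libraries the highest Ccl5 (76.8 RPKM) and the highest macrophage and monocyte sum (438 RPKM) were both in dKO 1. However, dKO_Flt3ITD 1 and dKO 1 also had the highest RPKM sums over all genes (1071041 and 829421). Rescaling to the same sum would multiply their values by 0.6234 and 0.805, and the marker sums given here were not rescaled.

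In dKO_Flt3ITD 2 the macrophage and monocyte sum was 102 RPKM, within the range of the control libraries, and Ccl5 was at 251 RPKM, above every control and every dKO library. Natural killer and effector T cells also make Ccl5. Of 17 of their markers 8 were in the table, and these summed to 891 to 1936 RPKM in control, 783 to 2295 in dKO and 563 to 1799 in dKO_Flt3ITD. Most of that was Nkg7, at 780 to 1627 RPKM in control, and Klrd1 stood at 15.9 to 70.5 RPKM in control, 0 to 12.2 in dKO and 41.4, 0, 21.5 and 7.75 in dKO_Flt3ITD. Prf1, the perforin gene, was at 0 in all 4 dKO_Flt3ITD libraries, in 3 of the 4 controls and in dKO 3. Within their groups the natural killer and effector T cell sum too was highest in dKO_Flt3ITD 1 and dKO 1, the libraries with the highest RPKM sums over all genes. Over the 6 platelet and megakaryocyte genes reported here the sum was 4.10 to 17.9 RPKM in control, 20.6 to 49.9 in dKO and 7.63 to 76.4 in dKO_Flt3ITD, with 10.9 in dKO_Flt3ITD 1. That sum leaves out part of the list, so it does not show how platelet and megakaryocyte markers as a whole stood between the groups. Mast cell and basophil markers, 5 of 12 in the table, summed to 87.3 to 185 RPKM in control, 175 to 370 in dKO and 238 to 649 in dKO_Flt3ITD, so every dKO_Flt3ITD library was above every control. Most of that sum in dKO_Flt3ITD was Cpa3, at 16.2 to 113 RPKM in control, 107 to 319 in dKO and 183 to 566 in dKO_Flt3ITD. The part of these cells in the level of Ccl5 was not tested.

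In dKO_Flt3ITD 4, the library with the highest Ccl6 and Ccl9, the 6 neutrophil markers of the table summed to 1337 RPKM, against 34.3 to 311 in the other 11 libraries. Mpo, the myeloperoxidase gene, stood at 721 RPKM, Prtn3 at 273 and Elane at 105. In dKO, where all 4 libraries had Ccl6, the neutrophil sum was 34.3 to 143 RPKM, below or within the control range of 71.1 to 244 RPKM. Whether these markers account for the levels of Ccl6 and Ccl9 was not tested.

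**Figure D5:**
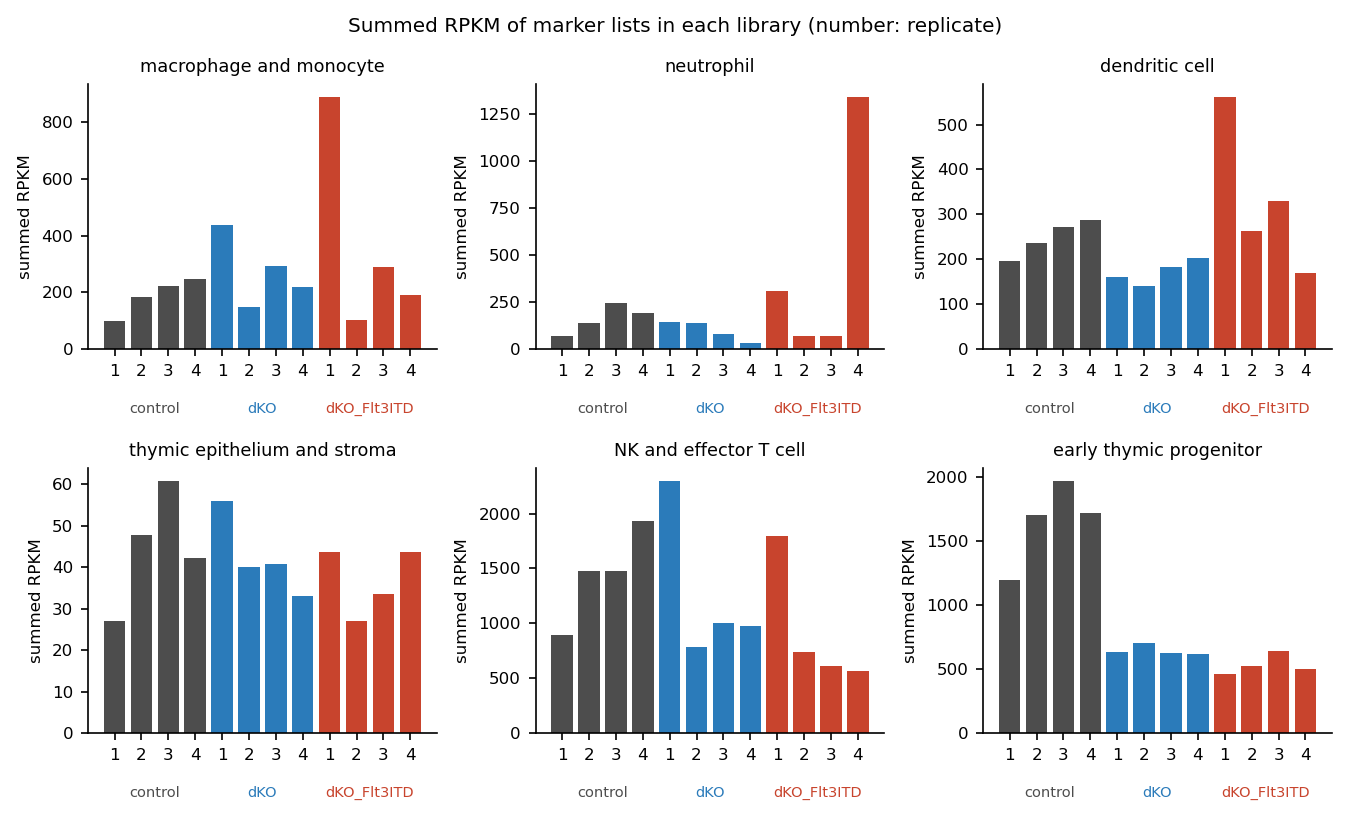
Summed RPKM of 6 marker lists in each of the 12 libraries, by genotype and replicate number. Macrophage and monocyte (887 RPKM, mostly Ly86 and Lyz2) and dendritic cell (561 RPKM, of which Bst2 made 518) sums are highest in dKO_Flt3ITD 1. The neutrophil sum (1337 RPKM) is highest in dKO_Flt3ITD 4. The thymic epithelium and stroma sums overlap between groups, and the early thymic progenitor sum is highest in the controls. Sums are not rescaled for the RPKM sum of each library.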

How the data were processed

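The SMARTer libraries came from 100 sorted cells each, per the labels' protocols. Tools named in the submitters' processing notes are TopHat2 2.0.10, SAMtools 0.1.19, HTSeq 0.5.4p5, with the build mm10. The authors deposited RPKM for 13016 genes in 12 libraries, and the total they divided by is not given in the sources used here. Whole reads were recovered from the steps between low values, for every gene within 0.001 of a whole number, and totalled 13623436 to 33985972 per library. Their exact Poisson intervals cover counting error only.

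The 10690 genes that reached 1 RPKM in 4 or more libraries were tested by limma 3.58.1 (R 4.3.3). The model took log2(RPKM + 1) of all 12 libraries, allowed the variance to follow the mean, and left 9 residual degrees of freedom. P-values were adjusted over all tested genes by Benjamini-Hochberg, with a threshold of 0.05. Differences are on that scale, on which low genes appear to change less than they do. The steps were tested on simulated data. Sample titles gave the groups and replicate numbers. Positions and coding sequences are from GENCODE mouse release 21 and promoters from RefSeq. Other pseudocounts, filters, scalings and fits, voom on the recovered reads and leaving out each library were tried as alternatives.

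The members and lists were chosen with earlier results of these data known. Named are all members, per list the called genes (at most 4) or the 1 with the smallest p, receptors of the members, the 6 genes most like Ccl5 and 2 for each other member, the nearest genes, and the main markers. Of these, Mmp28 and 1700020L24Rik, neighbours of Ccl5, were not tested, with at most 3.43 RPKM. Wfdc17, Wfdc18, Ccr7, Ccl12, Kit, Rgs1, Rgs2 and Klrd1 were named after their values were seen. Python 3.11.15 with numpy 2.4.6 and pandas 2.3.3 did the rest, and matplotlib 3.10.9 drew the figures. Results that need certain items are not reported here.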

Additional observations from a re-analysis of the deposited data

Results flagged for a closer look

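Within each group of 4 libraries, each member was checked for a library set apart from the other 3 by more than the 95% limit of Dixon's test. Of 18 groups 4 passed that limit, where chance flags about 1 in 20. The count is a description: both Ccl6 groups hold 3 libraries at 0, where any value above 0 passes, and Ccl5 was chosen by these values. Ccl5 at 1533 RPKM in dKO_Flt3ITD 1 stood apart from the other 3 libraries, at 50.7 to 251. Ccl4 at 135 RPKM stood apart in the same library from 23.2 to 37.4. Ccl6 at 13.1 RPKM in dKO_Flt3ITD 4 stood apart from 0 in the other 3. Ccl6 at 0.0279 RPKM in control 3 also passed the limit, but this is 1 read against 0 reads in the other 3 controls.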

How the results depend on the processing

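Of 408 member values under the alternatives, 402 kept their direction and, where tested, their side of the threshold. Ccl6 in dKO against control passed in 3 alternatives. Ccl6 in dKO_Flt3ITD against control was -0.01 without dKO_Flt3ITD 4 (-0.01 to 1.26 over leaving out each library) and -0.01 without dKO_Flt3ITD 1 and 4 together. Ccl9 there moved to 0.19 without both. Leaving out dKO_Flt3ITD 1 and 4 together was chosen after seeing the data. With a minimum of 5 RPKM, Ccl6 and Ccl9 were not tested and have no value.

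In dKO against control limma called 109 genes, 64 with no filter, 5 with voom, and 58 to 150 without 1 library. In dKO_Flt3ITD against control it called 160 genes, 91 with no filter, 27 with voom, and 94 to 187 without 1 library. In dKO_Flt3ITD against dKO it called 0 genes, 3 with a pseudocount of 5, 1 with no filter, 1 with the minimum of 5 RPKM, 2 with a fixed sum, 1 with median-ratio scaling, 1 with only the 8 libraries compared, 3 without dKO_Flt3ITD 1 and 4, and 0 to 6 without 1 library. Of the 11 other chemokine system genes, dKO against control had 0 calls, and 0 to 1 without 1 library. In dKO_Flt3ITD against control there was 1 call, 2 with only the 8 libraries compared, 0 with voom, 0 without dKO_Flt3ITD 1 and 4, and 1 to 2 without 1 library. The cause of these changes was not tested. Rescaling to a fixed sum moved the median of all tested genes to -0.106, -0.205 and -0.0928 in the 3 comparisons.

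Replicate numbers did not pair the samples: libraries with the same number had deviations correlated by -0.147 to 0.126. With the replicate number as a block the fit called 85, 116 and 0 genes, and 0, 1 and 0 of the chemokine system genes, and changed no member's call. Depth limits the members where they are near 0, such as Ccl6 and, in control 1, Ccl5. It also limits Ccl9 and Ccl25 in some libraries. Ccl9 rested on 9 reads in dKO 1, and Ccl25 on 8 reads in dKO_Flt3ITD 4 and 12 in control 1.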
